A study of Mus musculus with 15 samples.

Results

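The MHC class I route, through which cells show peptides to CD8+ T cells, was followed in 10 genes (the members) through the development of insulitis: the heavy chains H2-K1 and H2-D1, their light chain B2m, the regulator Nlrc5, the peptide transporter Tap1 and Tap2 with its partner Tapbp, and the immunoproteasome subunits Psmb8, Psmb9 and Psmb10. They were chosen by name as known parts of the pathway, with no measured value in the rule, and all 10 of 10 were found among the 48709 genes of the count table. Islets of NOD/ShiLtJ females were collected at 4, 6, 8, 10 and 12 weeks of age, with 3 mice at each age and 15 samples in all. Islets were freed with collagenase and sequenced whole, so that each sample holds endocrine cells together with the immune and other cells that stayed with them. All mice were untreated animals of 1 strain, and no strain free of insulitis was part of the series, so that age and disease course cannot be told apart. No animal was sampled at more than 1 age.

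Cells display fragments of their own proteins on MHC class I molecules, where CD8+ T cells read them. Proteins are cut by the proteasome, the fragments are pumped into the endoplasmic reticulum by the TAP transporter, and tapasin (Tapbp) holds the empty heavy chain and B2m beside the transporter until a peptide is bound. Interferon gamma raises the whole route and exchanges the catalytic subunits of the standard proteasome (Psmb5, Psmb6 and Psmb7) for those of the immunoproteasome (Psmb8, Psmb9 and Psmb10). Leukocytes carry much of this machinery without any stimulus, while resting beta cells carry little. In type 1 diabetes, high class I on islet cells is a known feature of inflamed islets. For that reason each gene was set beside Ptprc, which encodes CD45 and marks leukocytes.

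Of the 10 members 7 lie within or beside the MHC on chromosome 17 (mm10, as in the count table). Tapbp lies at chr17:33915899-33929288, H2-K1 at chr17:33996017-34000333 and H2-D1 at chr17:35262730-35267499. Between them, Psmb9 (chr17:34181988-34187764, minus strand), Tap1 (chr17:34187553-34197225, plus strand), Psmb8 (chr17:34197721-34201454) and Tap2 (chr17:34203527-34216321) stand next to each other. Outside the MHC, B2m lies at chr2:122147686-122153083, Nlrc5 at chr8:94434356-94527272 and Psmb10 at chr8:105935735-105938444.

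Promoters, from 250 bases before to 50 after the transcription start, were taken from RefSeq (GRCm38.p6) and matched 8 of the 10 members, all but Tap2 and Nlrc5. Of these, 4 are shown as examples, and no link between their motifs and the change in level was tested. Capitals mark CCAAT or its reverse complement ATTGG (the NF-Y box) in all 4, GAAA followed after any 2 bases by another GAAA (the core of the interferon-stimulated response element, ISRE) in B2m, and GGGGATTCCCC and GAAGTGAAA (here as its reverse complement TTTCACTTC) in the heavy chains. RefSeq gives 2 windows for H2-K1, of which the one nearest to the start of the gene in the count table was used. The windows are chr17:34000284-34000583 on the minus strand for H2-K1, and on the plus strand chr17:35262844-35263143 for H2-D1, chr2:122147437-122147736 for B2m and chr17:34187306-34187605 for Tap1.
H2-K1: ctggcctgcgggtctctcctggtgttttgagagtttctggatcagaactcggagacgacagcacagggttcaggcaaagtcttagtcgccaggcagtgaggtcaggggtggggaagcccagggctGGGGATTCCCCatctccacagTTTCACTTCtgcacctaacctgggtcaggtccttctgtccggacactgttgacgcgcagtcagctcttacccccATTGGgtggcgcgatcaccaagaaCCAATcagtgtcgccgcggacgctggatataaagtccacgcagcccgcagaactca
H2-D1: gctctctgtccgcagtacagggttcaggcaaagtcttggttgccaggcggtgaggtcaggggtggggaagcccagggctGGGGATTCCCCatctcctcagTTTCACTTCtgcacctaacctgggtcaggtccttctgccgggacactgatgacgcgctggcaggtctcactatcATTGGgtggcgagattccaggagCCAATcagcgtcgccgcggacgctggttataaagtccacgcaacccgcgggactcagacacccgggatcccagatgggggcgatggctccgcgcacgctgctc
B2m: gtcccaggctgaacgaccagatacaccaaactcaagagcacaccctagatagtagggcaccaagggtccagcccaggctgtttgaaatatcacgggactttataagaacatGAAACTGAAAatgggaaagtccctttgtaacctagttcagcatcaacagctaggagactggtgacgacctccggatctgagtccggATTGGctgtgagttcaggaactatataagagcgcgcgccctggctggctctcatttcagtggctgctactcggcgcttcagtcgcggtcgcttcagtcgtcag
Tap1: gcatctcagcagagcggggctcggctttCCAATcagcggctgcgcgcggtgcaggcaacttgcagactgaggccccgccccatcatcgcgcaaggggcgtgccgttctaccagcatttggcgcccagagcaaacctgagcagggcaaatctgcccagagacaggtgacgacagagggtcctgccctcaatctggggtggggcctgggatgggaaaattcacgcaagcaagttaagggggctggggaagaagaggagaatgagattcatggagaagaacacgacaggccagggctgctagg

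CCAAT was found on either strand in 6 of the 8 promoters, against 37.4% of the 32544 mouse promoters of the same length. The RefSeq start used for Tapbp, 1 of the 6, lay 3579 bases from the start of the gene in the count table. For H2-D1, Psmb9 and Psmb8 this distance was 364, 434 and 474 bases. The exact ISRE core pattern was found on either strand in B2m alone (3.45% of all promoters), and TGACGTCA in none of the 8 (1.8%). The search allowed no mismatch, so a promoter without the exact pattern is not shown to lack an ISRE. GGGGATTCCCC was present in both heavy chains and in 0.0307% of all promoters, and GAAGTGAAA in both and in 0.507%. The last pair of motifs was picked after the H2-K1 and H2-D1 sequences had been read, so their presence there is a description only. None of the motifs searched overlaps another within the 8 windows. The windows of Tap1 and Psmb9 cover nearly the same bases on opposite strands, so that the CCAAT letters of the one are those of the other. The reference is that of another strain. The NOD alleles of these genes and the sequence of the NOD promoters were not analysed here.

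Counts summed to between 25407492 and 41616275 per sample, and 3 counts correspond to 0.0754 to 0.128 CPM (counts per 1e+06 counts after TMM scaling, the unit of the levels below unless TPM is named). Every member stood far above that floor, the lowest single value being 29 counts of Nlrc5 in a 6-week mouse. The summed level of 12 islet endocrine genes was 312311 to 345805 CPM at 4 weeks and 152711 to 193614 at 12, and 10 of the 12 fell. The summed level of 19 leukocyte genes was 56.0 to 304 CPM at 4 weeks and 2430.0 to 2896 at 12. All 19 rose, and none had 0 counts over the 15 samples together. The 7 acinar genes summed to 1224 to 14435 CPM over the 15 mice and none passed the test, while 6 of 6 fibroblast and pericyte genes rose from 4 to 12 weeks. Of the 6 endothelial genes 3 rose, 1 fell and 2 did not pass. There were 3 samples that stood apart from the others of their age in leukocyte genes: replicate 1 at 4 weeks and replicate 3 at 6 weeks were high (304 and 329 CPM against at most 96.0 and 146), and replicate 1 at 8 weeks was low (199 CPM against 855 and 1205). In bulk RNA, more cells of a type and more RNA of a gene per cell cannot be told apart.

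All 10 members were higher at 12 than at 4 weeks, between 1.94-fold for Tapbp and 9.25-fold for Nlrc5, with no overlap between the ages for any of them. B2m rose 8.15-fold, H2-K1 6.25-fold, Psmb9 6.16-fold and Psmb8 6.04-fold. Nearly all of the change fell between 6 and 10 weeks: the mean levels of the members at 6 weeks were close to those at 4, and those at 12 weeks close to those at 10. In the edgeR quasi-likelihood test, which compares the ages against the spread between mice of an age and adjusts the p-values by Benjamini-Hochberg over 16554 genes, 10 of 10 members passed an adjusted p of 0.05 between 4 and 12 weeks. Of all genes tested, 53.5% passed in either direction and 26.3% as higher at 12 weeks. The median log2 fold change was 2.48 over the members and -0.05 over all genes. Values without overlap, higher at 12 weeks, were seen in 10 of 10 members and in 30.3% of all genes. In the joint test over the 5 ages 10 of 10 passed, with 56.0% of all genes.

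**Figure D1:**
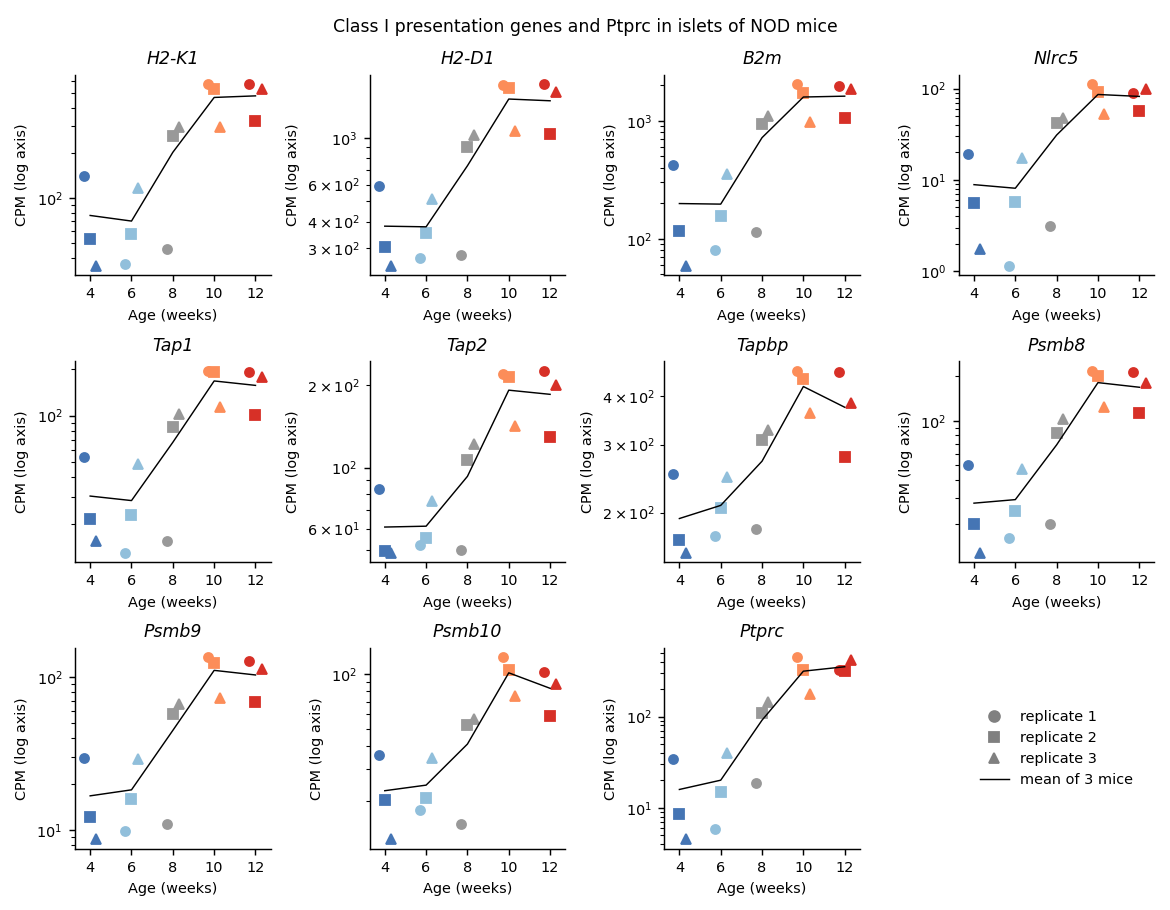
Level of the 10 members and of Ptprc (CPM, log axes that differ in range) against age in weeks, 1 point per mouse with the shape giving the replicate number and a line through the means of 3 mice. At 12 weeks every mouse lies above every 4-week mouse, and replicate 1 at 8 weeks lies with the young mice in all 11 genes.

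Among the heavy chains, H2-K1 encodes the K molecule that presents peptides to CD8+ T cells. It measured 141, 53.3 and 35.5 CPM in the 4-week mice, 36.6, 58.1 and 116 at 6 weeks, and 45.9, 261 and 299 at 8 weeks. At 10 weeks it measured 579, 530.1 and 296 CPM and at 12 weeks 578, 327 and 534. The lowest of the 6 older mice thus lay above the highest of the 6 young ones, while at 8 weeks 1 mouse sat with the young and the other 2 stood near the lower end of the old. The change from 4 to 12 weeks was 2.64 on the log2 scale (SE 0.686, n = 3 mice per age, edgeR adjusted p = 0.00630).

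H2-D1, the D molecule, had a smaller fitted change than H2-K1, a difference that was not tested. It measured 592, 303 and 247 CPM at 4 weeks and 1808, 1039.9 and 1650.0 at 12 weeks, with 278, 901 and 1032 at 8 weeks. The log2 change was 1.98 (SE 0.468, edgeR adjusted p = 0.00381). Reads of the heavy chains are hard to place: 9.63% of the 50-base words of the H2-K1 transcripts and 12.8% of those of H2-D1 also occur in another gene, most often another class I gene, whereas none do in B2m, Psmb9, Psmb10 and Nlrc5. The levels of H2-K1 and H2-D1 in NOD islets are uncertain for that reason. The NOD allele of each gene was not compared with the reference, so any uneven effect of alleles on the 2 genes is not known here.

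B2m, the light chain of class I molecules, had the widest range among the presenting chains. In the 4-week mice it measured 422, 116 and 59.1 CPM and in the 6-week mice 79.7, 156 and 354. At 8 weeks it measured 113, 945 and 1103, at 10 weeks 2069, 1729 and 980.2, and at 12 weeks 1959, 1054 and 1846. The 4-week mice differed among themselves 7.14-fold and the 8-week mice 9.73-fold, against 1.86-fold at 12 weeks. The log2 change from 4 to 12 weeks was 3.03 (SE 0.868, edgeR adjusted p = 0.0109).

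Nlrc5 encodes the transactivator that switches on class I genes, as Ciita does for class II. It was the member with the lowest level and the largest change. It measured 19.3, 5.56 and 1.74 CPM at 4 weeks, 1.15, 5.68 and 17.5 at 6 weeks and 3.14, 41.8 and 48.3 at 8 weeks. At 10 weeks it measured 114, 92.4 and 53.3 and at 12 weeks 89.9, 57.3 and 99.7, so that all older mice lay above all younger ones. The log2 change was 3.21 (SE 1.02, edgeR adjusted p = 0.0182). This call was lost when replicate 2 or replicate 3 at 4 weeks was left out (edgeR adjusted p of at most 0.0651). Part of Nlrc5 overlaps the antisense gene 9330175E14Rik, which had 1508 counts over the 15 samples beside 20072 for Nlrc5, and whether the counting used strand is not given in the sources used here.

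Tap1 and Tap2 form the transporter. Tap1 measured 53.7, 21.5 and 15.6 CPM at 4 weeks and 192, 101 and 177 at 12 weeks, a log2 change of 2.37 (SE 0.670, edgeR adjusted p = 0.0100). Tap2 measured 83.5, 49.7 and 49.1 CPM at 4 weeks and 225, 129 and 199 at 12 weeks, a log2 change of 1.60 (SE 0.334, edgeR adjusted p = 0.00184). Neither gene overlapped between these ages. Tap2 had the smallest adjusted p of the 10 members, although its change lay below their median. Tapbp, which bridges transporter and heavy chain, measured 251, 170.3 and 158 CPM at 4 weeks and 461, 278 and 385 at 12 weeks. Its log2 change of 0.96 (SE 0.251, edgeR adjusted p = 0.00668) was the smallest of the members, and its lowest 12-week mouse lay only a little above the highest 4-week mouse. Tapbp shares 3421 bases with Zbtb22, which had 13210 counts over the 15 samples beside 132423 for Tapbp.

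Psmb8, Psmb9 and Psmb10 are the catalytic subunits of the immunoproteasome. Psmb8 measured 50.4, 20.1 and 12.9 CPM at 4 weeks, 20.3, 83.2 and 103 at 8 weeks and 212, 113 and 179 at 12 weeks, a log2 change from 4 to 12 weeks of 2.60 (SE 0.624, edgeR adjusted p = 0.00414). Psmb9 measured 29.3, 12.1 and 8.65 CPM at 4 weeks and 127, 68.8 and 112 at 12 weeks, a log2 change of 2.62 (SE 0.635, edgeR adjusted p = 0.00429). Both had every 12-week mouse above every 4-week mouse. Psmb10 measured 35.8, 20.2 and 12.3 CPM at 4 weeks and 103, 58.8 and 87.9 at 12 weeks, a log2 change of 1.87 (SE 0.481, edgeR adjusted p = 0.00605). Tap1 and Psmb9 share 212 bases at their starts on opposite strands, so that some reads could have been counted for either.

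Replicate 1 at 4 weeks, the young mouse with the highest leukocyte genes of its age, moved the size of these changes. Without it, the log2 change from 4 to 12 weeks was 4.21 for B2m, 4.52 for Nlrc5, 3.44 for H2-K1, 3.35 for Psmb8, 3.31 for Psmb9 and 3.08 for Tap1, in each case over 1.5 times as large a fold as with it. All 10 members passed without it.

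Between neighbouring ages the picture was less firm. From 4 to 6 weeks the log2 changes ran from -0.14 to 0.13 and 0 of 10 members passed (0.0906% of all genes did), and 0 of 10 reached an unadjusted p under 0.05 (8.67%), with unadjusted edgeR p-values of 0.658 to 0.984. From 6 to 8 weeks all 10 were higher on average, with log2 changes of 0.38 to 1.95 and a median of 1.24, yet 0 of 10 passed the adjusted threshold, as did 0.0% of all genes in edgeR, and 2 of 10 reached an unadjusted p under 0.05 (18.0%). At the threshold of the study, a fold change of 1.5 and an unadjusted p under 0.05, 2 of 10 passed (9.82% of all genes). DESeq2 called 0 of the members. Free of overlap between 6 and 8 weeks were 0 of 10, against 7.62% of all genes higher without overlap: replicate 1 at 8 weeks lay among the 6-week mice. When that mouse and replicate 1 at 4 weeks were both left out, a choice made after seeing the data, 7 of 10 members passed between 6 and 8 weeks, with 7.54% of all genes. B2m then rose by 2.38 (SE 0.535, edgeR adjusted p = 0.0231) and H2-K1 by 1.99 (SE 0.431, adjusted p = 0.0204).

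From 8 to 10 weeks all 10 members were higher again, with a median log2 change of 1.26. Tap2 alone passed, with a log2 change of 1.04 (SE 0.329, edgeR adjusted p = 0.0482), 1 of 10 members against 16.8% of all genes. At the threshold of the study 6 of 10 passed (13.9% of all genes). Without overlap were 8 of 10, against 17.2% of all genes. The 2 that overlapped were H2-K1 and B2m, whose lowest 10-week mouse fell just below the highest 8-week mouse. The call has a narrow margin: between 0 and 2 members passed when single mice were left out in turn, 0 in 11 of these 15 fits. Without both of the mice named above 0 passed. The loss was not particular to the members: of all 16554 genes, 0 to 5697 passed in the same 15 fits, and 0 without both mice. From 10 to 12 weeks the log2 changes ran from -0.28 to 0.03 and 0 of 10 passed (0.0% of all genes). An unadjusted p under 0.05 was reached by 0 of 10 (7.52% of all genes), the edgeR values being 0.487 to 0.976, and DESeq2 also called 0.

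Levels can be set against each other per length in TPM. At 4 weeks B2m was the most abundant (455 ± 461, SD, n = 3), followed by H2-D1 (287 ± 151), Tapbp (113 ± 34.2), H2-K1 (57.5 ± 44.7), Tap2 (31.1 ± 11.4), Psmb10 (26.0 ± 14.6), Psmb8 (19.9 ± 14.98), Tap1 (10.8 ± 7.73), Psmb9 (8.89 ± 6.25) and Nlrc5 (2.06 ± 2.21). With that spread most neighbours in the order cannot be separated at 4 weeks. At 12 weeks B2m (4755 ± 1532) stood above H2-D1 (1466 ± 416), and H2-D1 above H2-K1 (464 ± 137). H2-K1 had passed Tapbp (286 ± 69.9). Below them came Psmb8 (155 ± 46.7), then Tap2 (123 ± 34.3) and Psmb10 (123 ± 33.4) at the same level, Tap1 (72.2 ± 23.4) and Psmb9 (70.8 ± 21.5), also at the same level, and Nlrc5 (24.5 ± 7.65).

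Ptprc, set beside the members in the same mice, measured 34.6, 8.68 and 4.52 CPM at 4 weeks, 5.86, 14.9 and 39.7 at 6 weeks and 18.9, 110.4 and 145 at 8 weeks. At 10 weeks it measured 444, 319 and 178 and at 12 weeks 322, 317 and 414. Up to 10 weeks the mice of an age stood in the same order as for B2m and H2-K1. The log2 change from 4 to 12 weeks was 4.46 (SE 0.924, edgeR adjusted p = 0.00178). The change of each member was compared with that of Ptprc by taking the difference of the log2 levels within each mouse and testing it with limma. Of the 10 members 8 changed less than Ptprc, as did 94.1% of all genes, whose median difference was -5.01. The members lay between, with a median of -2.32 and a range from -4.01 for Tapbp to -1.18 for Nlrc5. For B2m (-1.51, SE 1.03, limma adjusted p = 0.150) and Nlrc5 (-1.18, SE 0.962, limma adjusted p = 0.229) a difference from Ptprc was not shown. The count of 8 fell to 4 when replicate 2 or 3 at 4 weeks or replicate 2 at 12 weeks was left out, to 5 without replicate 3 at 12 weeks, and to 7 in 6 further fits that left out 1 mouse. H2-K1 (limma adjusted p = 0.0439) lost its call in 10 of these 15 fits, with adjusted p-values up to 0.129. Psmb8 and Psmb9 (limma adjusted p = 0.0339 and 0.0299) each lost theirs in 4, and Tap1 in 3.

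The mean ratio of each member to Ptprc was lower at 12 than at 4 weeks, a difference shown by the test above for 8 of the 10 and not for B2m and Nlrc5. The B2m to Ptprc ratio of CPM was 12.2, 13.3 and 13.1 in the 4-week mice, although B2m itself differed 7.14-fold among them. At 8 weeks it was 6.00, 8.56 and 7.62, and at 12 weeks 6.08, 3.33 and 4.46. The Tapbp to Ptprc ratio behaved differently, with 7.26, 19.6 and 34.8 at 4 weeks and 1.43, 0.877 and 0.931 at 12 weeks. Among the 4-week mice B2m moved in step with Ptprc, while Tapbp differed only 1.59-fold and its ratio was lowest where Ptprc was highest. H2-D1 (17.1 to 54.7 at 4 weeks) and Tap2 (2.41 to 10.8) were like Tapbp, and H2-K1 (4.09 to 7.85), Psmb8 (1.46 to 2.86) and Psmb9 (0.848 to 1.91) lay between. Nlrc5 to Ptprc, at 0.384 to 0.640 at 4 weeks and 0.181 to 0.279 at 12 weeks, was the ratio that changed least over age.

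How far mice of the same age differ in a member along with Ptprc was measured as a slope: the log2 change of the gene for each doubling of Ptprc, with a separate mean for each age. A slope of 1 means that the gene doubles with Ptprc, and a slope of 0 that it does not follow it. All 10 members had a positive slope that passed in edgeR, against 9.64% of all genes (9.86% in either direction). The slopes ran from 0.25 (SE 0.0439) for Tapbp and 0.33 (SE 0.0575) for Tap2 to 0.97 (SE 0.0696) for B2m and 1.23 (SE 0.0804) for Nlrc5. H2-K1 (0.76), Tap1 (0.75), Psmb9 (0.71) and Psmb8 (0.69) formed a middle group, and Psmb10 (0.52) and H2-D1 (0.50) lay below it. The highest adjusted p among the 10 was 0.00163. When replicate 1 at 4 weeks and replicate 1 at 8 weeks were both left out, 8 of 10 passed (4.54% of all genes), Tap2 (0.24, edgeR adjusted p = 0.220) and Tapbp (0.20, adjusted p = 0.224) being lost.

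**Figure D2:**
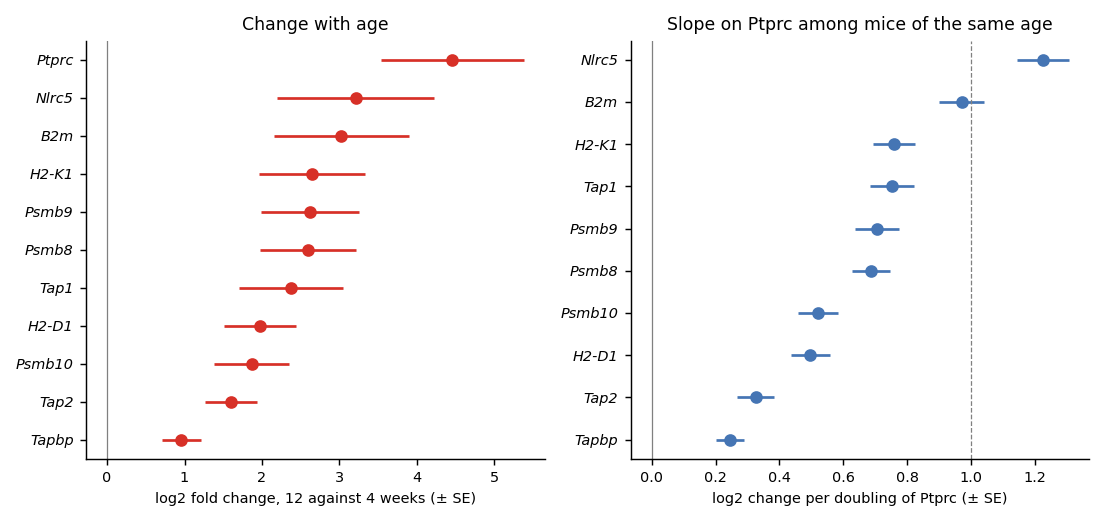
Left, log2 fold change from 4 to 12 weeks (± SE, edgeR, 3 mice per age) of Ptprc and the 10 members, and right, the slope of each member on Ptprc among mice of the same age (log2 change per doubling of Ptprc, ± SE, 15 mice, dashed line at 1). Nlrc5 and B2m lead both panels among the members and Tap2 and Tapbp close both.

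**Figure D3:**
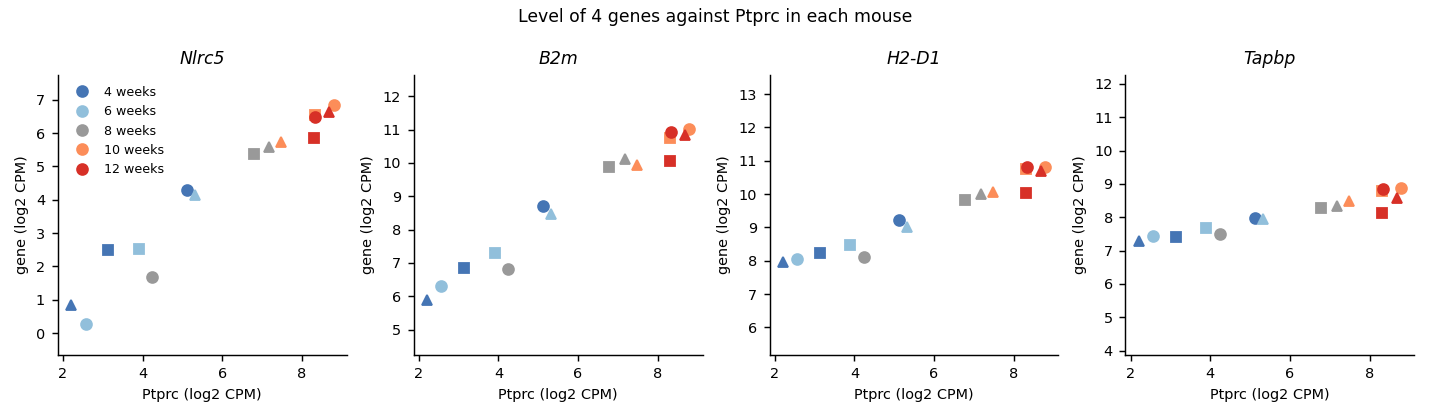
Log2 CPM of Nlrc5, B2m, H2-D1 and Tapbp against log2 CPM of Ptprc, 1 point per mouse, colour for age and shape for replicate number (circle 1, square 2, triangle 3), with vertical axes of equal span. Nlrc5 and B2m climb steeply with Ptprc across the 15 mice, and Tapbp stays almost level until Ptprc is high.

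With Ptprc as a covariate beside the age means, an alternative added after seeing the data, 0 of 10 members passed between 4 and 12 weeks and 0.0544% of all genes did. At an unadjusted p under 0.05, 4 of 10 were lower at 12 weeks, with 7.76% of all genes. Negative were 9 of the 10 adjusted changes, from -0.24 for Tapbp to -2.24 for Nlrc5 (SE 0.427, edgeR adjusted p = 0.0908), and that of Tap2 was 0.03. From 6 to 8 weeks all 10 adjusted changes were negative as well, from -0.74 for Nlrc5 to -0.17 for Tap2. Age and leukocyte content go together in these mice, and the covariate takes out whatever either shares with it. The part of infiltrating cells and of islet cells in the rise of the members was not tested.

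One older mouse departed from this relation. Replicate 2 at 12 weeks had as much Ptprc as replicate 1 (317 and 322 CPM), and its 19 leukocyte genes summed to 2460 CPM against 2430.0 and 2896 in the other mice of its age. Its T cell genes were also at the level of replicate 1 (270.1 and 269.6 CPM). Its B cell genes were the highest of its age (319 CPM against 205 and 301), and its myeloid genes the lowest (996 CPM against 1041 and 1070.2). All 10 members were lowest in this mouse. B2m stood at 1054 CPM against 1959 and 1846, H2-K1 at 327 against 578 and 534, and Psmb8 at 113 against 212 and 179. Ifng, the gene of interferon gamma, measured 1.74 CPM in this mouse and 5.12 and 4.62 in the others. Irf1, an interferon-induced transcription factor, measured 105 CPM against 191 and 177. A group of 3 mice allows no test of 1 of them, and why this mouse differs was not tested.

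The exchange of proteasome subunits was followed as the share of the inducible subunit in the TPM of each pair. Psmb8 against Psmb5 made up 36.1%, 18.2% and 12.6% in the 4-week mice, 17.6%, 24.2% and 40.9% at 6 weeks and 21.6%, 58.5% and 62.1% at 8 weeks. At 10 weeks the share was 76.4%, 70.9% and 59.7% and at 12 weeks 71.9%, 61.5% and 72.2%. No mouse of 10 or 12 weeks was below any of 4 or 6 weeks, and at 8 weeks replicate 1 lay among the young mice, replicate 2 just below the lowest older mouse and replicate 3 within the older range. Means rose from 22.3% ± 12.3 (SD, n = 3) at 4 weeks to 68.5% ± 6.08 at 12 weeks. The mean of the 6 mice of 10 and 12 weeks exceeded that of the 6 mice of 4 and 6 weeks by 43.8 percentage points (exact permutation test, two-sided, p = 0.00216, the smallest that 6 against 6 allows).

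Psmb9 against Psmb6 made up 10.6% ± 5.77 at 4 weeks, 27.2% ± 15.9 at 8 and 47.1% ± 7.58 at 12, and Psmb10 against Psmb7 34.5% ± 12.1, 51.2% ± 17.4 and 68.0% ± 5.57. Their late shares exceeded the early ones by 34.7 and 33.0 percentage points, without overlap and with the same exact permutation p = 0.00216 for each. The 3 p-values are the family tested and all remain at 0.00216 after Benjamini-Hochberg adjustment. Psmb9 alone stayed below its constitutive partner in mean TPM at 12 weeks. The shares are of RNA in all cells of the islet sample, and say nothing of assembled proteasomes or of which cells hold them.

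**Figure D4:**
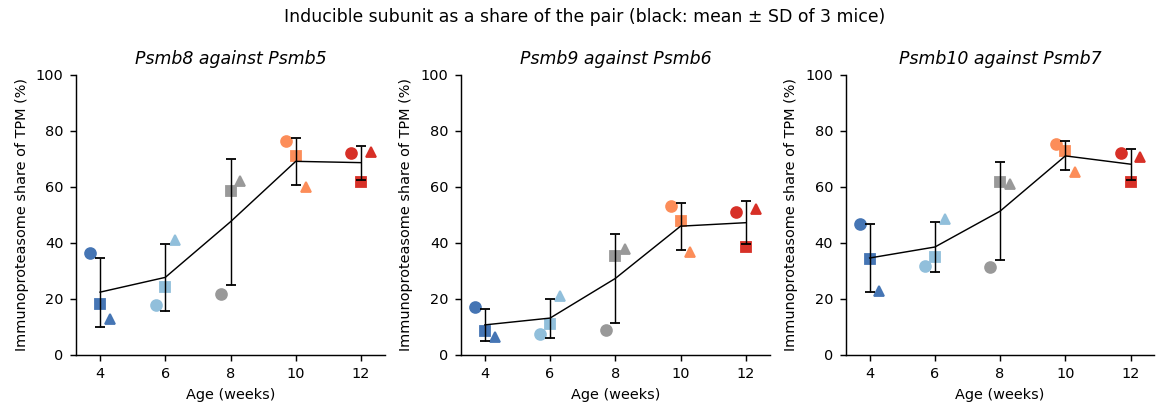
Share of the inducible subunit in the TPM of its pair (percent, axes from 0 to 100) against age in weeks for Psmb8 with Psmb5, Psmb9 with Psmb6 and Psmb10 with Psmb7, 1 point per mouse (circle, square and triangle for replicates 1, 2 and 3), black bars for mean ± SD of 3 mice. The points of 4 and 6 weeks lie below those of 10 and 12 weeks in each panel, and at 8 weeks replicate 1 lies among the young mice while replicates 2 and 3 lie above all of them.

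The constitutive partners took little part in the shift. From 4 to 12 weeks Psmb5 fell from 28.6 ± 0.205 to 23.6 ± 2.42 CPM (log2 change -0.28, edgeR adjusted p = 0.0432) and Psmb6 from 68.8 ± 3.43 to 57.5 ± 5.29 (-0.26, adjusted p = 0.0155), while Psmb7 measured 81.6 ± 3.56 and 76.0 ± 3.92 (-0.10, adjusted p = 0.138). None of them had a slope on Ptprc that passed. In TPM, the unit of the shares, these genes did not fall. Psmb5 measured 65.4, 61.4 and 62.7 TPM at 4 weeks and 72.9, 63.2 and 68.1 at 12. Psmb6 measured 77.8, 65.4 and 69.2 at 4 weeks and 81.2, 73.8 and 76.0 at 12. Psmb7 measured 48.1, 42.3 and 47.3 at 4 weeks and 56.6, 52.5 and 58.4 at 12. The direction of changes this small thus depends on the scaling, and the TPM values were not tested. Of the 11 other subunits of the 20S core, from 4 to 12 weeks 1 rose (Psma4, 0.25), 1 fell (Psmb4, -0.21) and 9 did not pass. Of the 6 ATPases of the 19S cap 0 rose and 2 fell (Psmc2 and Psmc5). Of the core genes measured, only Psmb8, Psmb9 and Psmb10 changed by more than 0.28 on the log2 scale between these ages. From 8 to 10 weeks 7 of the 11 other core subunits passed as higher, by up to 0.43, and so did Psmb7 (0.25). In that step 16.8% of all genes and 1 of 10 members passed. Among activators and assembly factors 4 of 5 rose from 4 to 12 weeks, against 26.3% of all genes. Psme1 (1.26) and Psme2 (1.02), the subunits of the interferon-induced PA28 cap, rose most, and both had a slope on Ptprc (0.28 and 0.25). Psme3 (0.35) and the assembly factor Pomp (0.30) rose less, and Psme4 fell by 0.35.

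Genes that act beside the members in the endoplasmic reticulum split. Tapbpl, a tapasin relative that edits peptides, rose by 0.54 and Erap1, which trims them, by 0.49 on the log2 scale (edgeR adjusted p = 0.0230 and 0.0236). The general chaperones of the loading complex fell after TMM scaling: Calr by 0.23, Canx by 0.33 and Pdia3 by 0.49 (edgeR adjusted p = 0.0372, 0.00337 and 0.000499). They also serve other secretory proteins, and at 4 weeks Pdia3 (1426 ± 80.1 CPM) and Calr (1179 ± 48.4 CPM) were already high. Why they fell was not tested.

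Of 13 other class I heavy chains 12 rose (26.3% of all genes did), with a median log2 change of 2.47, close to the 2.48 of the members. H2-T3 changed most (5.30, from 0.152 ± 0.226 to 6.23 ± 5.36 CPM) and H2-M3 least among those that passed (1.01). H2-Q2 did not pass (-0.33, edgeR adjusted p = 0.182). Some of these genes share sequence with the 2 heavy chains among the members. H2-Q10 holds 5.18% of the 50-base words of H2-K1, and H2-Q1 holds 5.87% of those of H2-D1. Reads may have been split among the class I genes. Of the 4 other partners of B2m all 4 rose: Fcgrt, the neonatal Fc receptor chain (1.77), Cd1d1, which presents lipids (1.58), Mr1, which presents vitamin B derivatives (0.46) and Hfe, a regulator of iron uptake (0.39).

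Of 8 factors known at class I or class II promoters 4 rose and 3 fell. Of all genes 53.5% passed in either direction and 26.3% as higher. Ciita, the class II counterpart of Nlrc5, changed most (3.96, SE 0.943, edgeR adjusted p = 0.00391) and had a slope on Ptprc of 1.10. Nfyb fell by 0.36, the largest fall of the list. The remaining changes among the RFX, NF-Y and CREB factors were below 0.54. All 13 interferon signalling genes rose, from Ifnar1 (0.46) to Ifng (3.45, SE 1.21, edgeR adjusted p = 0.0290), with a median of 1.33. A positive slope on Ptprc passed in 11 of the 13, against 9.64% of all genes. Ifng was listed at 0 in 1 mouse of 4 weeks and 1 of 6 weeks and never exceeded 6.62 CPM.

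**Figure D5:**
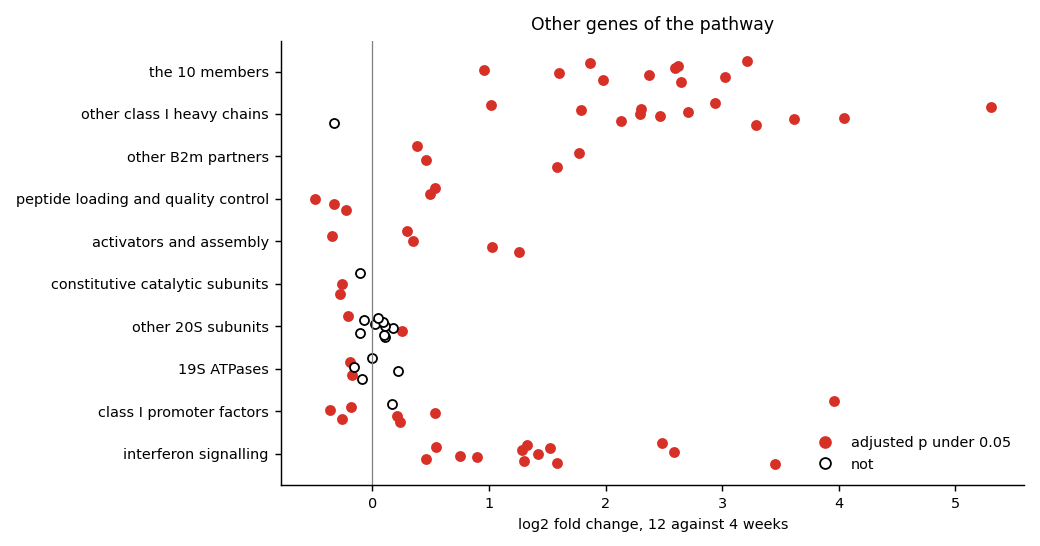
Log2 fold change from 4 to 12 weeks (edgeR) of the 10 members and of 9 lists of genes related to the pathway, 1 point per gene, filled where the adjusted p is under 0.05. Members, other class I heavy chains and interferon signalling genes lie to the right of 0 apart from H2-Q2, and proteasome subunits outside the members lie close to 0.

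The members also resembled each other over the 15 samples. Each was set against the mean log2 CPM of the other members, and Pearson r ran from 0.979 for Tapbp to 0.999 for Psmb9. The mean log2 CPM of all 10 was 5.51 ± 0.92 (SD, n = 3) at 4 weeks, 5.57 ± 0.78 at 6, 6.60 ± 1.30 at 8, 8.07 ± 0.43 at 10 and 7.99 ± 0.44 at 12 weeks. Among 16544 other genes those closest to this mean included H2-T-ps (0.998), a class I pseudogene, Bcl2a1b (0.998), a survival factor of haematopoietic cells, Gbp9 (0.997), an interferon-induced GTPase, and Ms4a6d (0.996), found in macrophages. Ptprc had r = 0.981 and rank 253. These correlations are over 15 samples that fall into young and old clusters and share depth and tissue, and are given as a description.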

How the data were processed

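RNA of whole islets was sequenced by the authors from polyadenylated RNA of 15 NOD females. The deposited count of each gene, a whole number of reads, was made by the authors in CLC Genomics Workbench 23.0 with default trimming, alignment and quantification and without normalization (genome build mm10 per the submitters' processing notes). The deposited TPM values are the authors' own length-scaled levels, used here for shares and for order among genes. A further 30 per-sample columns (RPKM and CPM) were not used, nor were the authors' lists of differentially expressed genes. Depth was 25407492 to 41616275 counts per sample. The replicates are separate mice.

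Groups are the ages in the sample labels. Counts were filtered with filterByExpr (16554 of 48709 genes kept), scaled by TMM and fitted with edgeR 4.0.16 (R 4.3.3, glmQLFit with 1 mean per age, glmQLFTest), with Benjamini-Hochberg adjustment over all genes tested. Log2 CPM used a prior count of 2. Differences from Ptprc were tested with limma 3.58.1 (trend), slopes with Ptprc log2 CPM as a term in edgeR, and shares by exact permutation tests in scipy 1.17.1. Tables and figures were made in Python 3.11.15 with matplotlib 3.10.9. The fits were tested on simulated data with 200 changed genes.

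The members and lists were chosen with earlier results of these data known. Genes named are all members, the genes of lists of 5 or fewer, the largest and smallest change past the threshold in longer lists, and the 5 genes most like the members' mean. A gene and a motif that fall under these rules are not reported here. Irf1, H2-Q2 and the overlapping genes fall outside this rule and were named after their values were seen. Of 20 leukocyte genes 19 were used. Alternatives were DESeq2 1.42.0 and its size factors, library totals, no filter, a prior count of 0.5, 2 ages alone, the edgeR exact test, single mice left out and a replicate block. Ptprc as a covariate, and leaving out both replicate 1 at 4 weeks and replicate 1 at 8 weeks, were added after seeing the data.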

Additional observations from a re-analysis of the deposited data

How the results depend on the processing

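The rise of the members from 4 to 12 weeks and in the joint test over 5 ages was called in 10 of 10 under every other normalization, filter or test that kept all mice, apart from the covariate below, and in 9 to 10 (4 to 12 weeks) or 10 of 10 (joint) when single mice were left out. The slope on Ptprc was called in 10 of 10 under each of these. From 8 to 10 weeks the count of 1 member became 0 with library totals and without the filter. It was also 0 with 2 ages alone and with the edgeR exact test. DESeq2 gave 3, and leaving out single mice gave 0 to 2. Over all genes, 0 to 5697 passed from 8 to 10 weeks across these alternatives and the replicate block. The count of members that differed from Ptprc was 4 to 8 when single mice were left out. Taking 12 against 4 weeks alone, the immunoproteasome shares differed by 46.3 (Psmb8), 36.5 (Psmb9) and 33.5 (Psmb10) percentage points with an exact permutation p = 0.1, the smallest that 3 against 3 allows; leaving out single mice gave 41.4 to 47.0, 33.3 to 36.6 and 30.2 to 35.4 points for the full comparison.

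With the replicate number as a block, 10 members passed from 4 to 12 weeks, 10 in the joint test and 10 for the slope, 0 passed from 8 to 10 weeks and 5 differed from Ptprc. The numbers do not pair the mice: deviations of same-numbered mice from their age means correlated between -0.504 and 0.509, over 0.1 in 3 of 15 pairs.

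Ptprc as a covariate left 0 members called from 4 to 12 weeks, 0 in the joint test and 0 from 8 to 10 weeks. The log2 changes from 4 to 12 weeks became -0.88 (H2-K1), -0.39 (H2-D1), -1.32 (B2m), -1.16 (Tap1), -0.24 (Tapbp), -0.58 (Psmb8), -0.68 (Psmb9), -0.59 (Psmb10) and -2.24 (Nlrc5), and those from 6 to 8 weeks -0.33 (H2-K1), -0.26 (H2-D1), -0.49 (B2m), -0.51 (Tap1), -0.17 (Tap2), -0.18 (Tapbp), -0.39 (Psmb8), -0.40 (Psmb9), -0.51 (Psmb10) and -0.74 (Nlrc5). Without both replicate 1 at 4 weeks and replicate 1 at 8 weeks, 7 members passed from 6 to 8 weeks and 0 from 8 to 10 weeks. Of all genes, 1248 and 0 passed in these comparisons. The cause of these shifts was not tested. The lowest value of any member was 29 counts, and each age had 3 mice.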

Other observations

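The leukocyte markers behind the summed level can be split by kind. Over 7 T cell genes the sum was 1.41 to 26.5 CPM in the 4-week mice and 269.6 to 374 in the 12-week mice, over 4 B cell genes 4.56 to 8.47 and 205 to 319, and over 5 myeloid genes 31.0 to 150.3 and 996 to 1070.2. Replicate 1 at 4 weeks, where all 10 members were highest for that age, was high in T cell genes (26.5 CPM against 3.80 and 1.41) and myeloid genes (150.3 against 51.3 and 31.0) but not in B cell genes (6.89 against 8.47 and 4.56). At 8 weeks replicate 1 held 6.60 CPM of T cell genes against 98.3 and 140.5, 98.0 CPM of myeloid genes against 395 and 545, and 32.6 CPM of B cell genes against 35.9 and 85.2, while B2m measured 113 CPM against 945 and 1103. Replicate 3 at 6 weeks, the highest of its age in the members, was highest in all 3 kinds (28.5, 17.7 and 164 CPM of T cell, B cell and myeloid genes). These values were picked after they were seen and were not tested.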
